A study of Rattus norvegicus with 14 samples.

Results

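A set of 10 genes that astrocytes are known to raise when they become reactive was described in cultured rat hippocampal cells treated with allopregnanolone (Allo) or vehicle. The genes were Gfap, Vim, S100b, Serpina3n, Lcn2, C3, Cd44, Osmr, Stat3 and Timp1, taken by symbol from the astrocyte table, which lists 31791 genes, with the neuron table of 18239 genes beside it. All 10 were listed in both tables.

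Both cultures came from hippocampi of embryonic day 18 Sprague Dawley rats, and no transgene or deletion is named for them. The astrocytes were mixed glia that had been shaken and plated again, so they were enriched rather than pure. They spent 24 h in the aging-model (AM) medium, here DMEM/F-12 with 10% charcoal-stripped serum, and a further 24 h with the agent. Libraries given vehicle are called AM-Veh and those given Allo at 100 nM AM-Allo, and there were 3 of each. The neurons, on day 10 in culture, spent 4 h in Neurobasal with reduced B27 supplement and then 16 h with either agent, and there were 4 libraries of each kind. Vehicle was 0.001% ethanol in the neuron cultures, and every group, the controls included, was in AM medium. The labels name replicates by number (1 to 3 in astrocytes, and 1-1, 1-2, 2-1 and 2-2 in neurons) and do not say whether numbers stand for separate cultures, so p-values measure the spread between these libraries, which may be technical. Each library held 19700000 to 28400000 reads on genes, estimated from the steps between low values. The neuron libraries stood apart by the first part of their number, which the labels do not explain. Over all genes, AM-Veh and AM-Allo libraries that share it correlated at 0.185 to 0.296 after removal of the group means, and those that do not at −0.319 to −0.15.

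Reactive astrocytes are astrocytes that respond to injury, inflammation or disease. They build more intermediate filaments, answer cytokines of the interleukin-6 family through the oncostatin M receptor, gp130 and the transcription factor STAT3, and secrete complement, acute-phase proteins and protease inhibitors. Culture in serum is itself known to bring astrocytes toward such a state, and GFAP and S100B also mark astrocytes that are not reactive.

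The sequences just upstream of 4 of these genes are shown because each holds a short motif that belongs to a transcription factor of the reactive response. The 250 bases before the start of each gene were read from RefSeq (GRCr8), which had an entry for all 10 genes. Both strands were searched for a STAT motif (TTCNNNGAA), a C/EBP motif (TTNNGCAA), an AP-1 motif (TGANTCA) and the NF-kappaB consensus. Capitals mark the matches, which did not overlap one another in these 4 sequences. Each is printed along the gene's own strand, and the C/EBP matches of Lcn2 and C3 read on the opposite one.
Serpina3n, chr6:129088142-129088391, plus strand: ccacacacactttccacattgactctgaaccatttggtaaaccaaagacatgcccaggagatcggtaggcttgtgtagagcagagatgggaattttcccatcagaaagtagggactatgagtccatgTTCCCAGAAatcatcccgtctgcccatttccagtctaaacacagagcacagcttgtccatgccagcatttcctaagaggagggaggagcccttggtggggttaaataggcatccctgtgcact
Osmr, chr2:57688562-57688811, minus strand: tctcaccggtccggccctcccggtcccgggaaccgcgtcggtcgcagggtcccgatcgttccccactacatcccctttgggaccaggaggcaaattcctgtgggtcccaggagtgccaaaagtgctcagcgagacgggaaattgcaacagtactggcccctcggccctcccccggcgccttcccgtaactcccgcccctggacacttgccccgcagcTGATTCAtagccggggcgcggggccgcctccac
Lcn2, chr3:36081781-36082030, minus strand: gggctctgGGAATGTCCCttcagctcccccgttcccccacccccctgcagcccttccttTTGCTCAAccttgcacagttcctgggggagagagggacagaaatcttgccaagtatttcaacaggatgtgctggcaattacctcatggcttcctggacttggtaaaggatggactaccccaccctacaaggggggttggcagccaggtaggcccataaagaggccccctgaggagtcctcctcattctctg
C3, chr9:2201340-2201589, minus strand: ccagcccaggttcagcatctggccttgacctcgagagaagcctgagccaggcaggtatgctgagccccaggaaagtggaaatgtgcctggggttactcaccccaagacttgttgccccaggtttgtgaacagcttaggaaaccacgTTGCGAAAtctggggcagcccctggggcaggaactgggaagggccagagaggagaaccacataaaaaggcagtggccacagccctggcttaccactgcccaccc
The STAT motif was matched in the Serpina3n sequence and in 7.67% of all 33469 upstream sequences. The AP-1 motif was matched in that of Osmr and in 6.34% of all. The C/EBP motif was matched in those of Lcn2 (the second run of capitals) and C3 and in 9.22% of all. The NF-kappaB consensus was matched in those of Lcn2 (the first run) and Vim, the latter with 3 overlapping windows in a run of G and C, and in 6.33% of all. No letters of these motifs were found in the window of Gfap, S100b, Cd44, Stat3 or Timp1. A match describes letters and not a bound site.

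All 10 genes were read in the astrocyte cultures at 580 normalized counts or more in every library, whereas in the neuron cultures Lcn2 and C3 were close to absent. Levels were set side by side in ppm, parts per 1000000 of a library's summed normalized counts, because the tables were normalized separately. No test was made between the cultures, which also differed in medium and hours of treatment. In AM-Veh, Vim, which encodes the filament protein vimentin, stood at 16700 ± 612 ppm (SD, n = 3) in astrocyte cultures and 1560 ± 311 (SD, n = 4) in neuron cultures, a ratio of 10.7. Gfap, the main intermediate filament of astrocytes, differed far less, at 5690 ± 204 (SD, n = 3) and 4250 ± 975 (SD, n = 4) ppm. The neuron cultures thus held a large amount of an astrocyte transcript, and those of the highest level came close to the astrocyte cultures (5320 against 5480 ppm in the lowest AM-Veh astrocyte library).

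S100b, a calcium-binding protein of astrocytes, was the one gene of the 10 with a ratio of over 2 toward the neuron cultures, at 780 ± 77.7 ppm (SD, n = 4) there and 200 ± 9.25 (SD, n = 3) in astrocyte cultures, a ratio of 3.90. Timp1, an inhibitor of metalloproteinases, had similar levels in both, at 169 ± 34.1 (SD, n = 4) and 150.0 ± 4.43 (SD, n = 3) ppm, with overlapping ranges. Stat3 was 1.41 times as high in astrocyte cultures. Serpina3n, a secreted serine protease inhibitor with close relatives that can share its reads, Cd44, a receptor for hyaluronan, and Osmr, the receptor for oncostatin M, were 7.48, 6.27 and 5.58 times as high there.

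C3, the central component of complement, was at 4520 ± 625 ppm (SD, n = 3) in AM-Veh astrocyte cultures and at 0.126 ± 0.0426 (SD, n = 4) in AM-Veh neuron cultures. The neuron values of C3 were 0.930 to 5.0 normalized counts, a few reads per library, and no ratio is given. Lcn2, the iron-siderophore carrier lipocalin 2, was at 528 ± 132 ppm (SD, n = 3) against 0.587 ± 0.572 (SD, n = 4). The 10 genes thus did not share 1 pattern across the cultures.

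**Figure D1:**
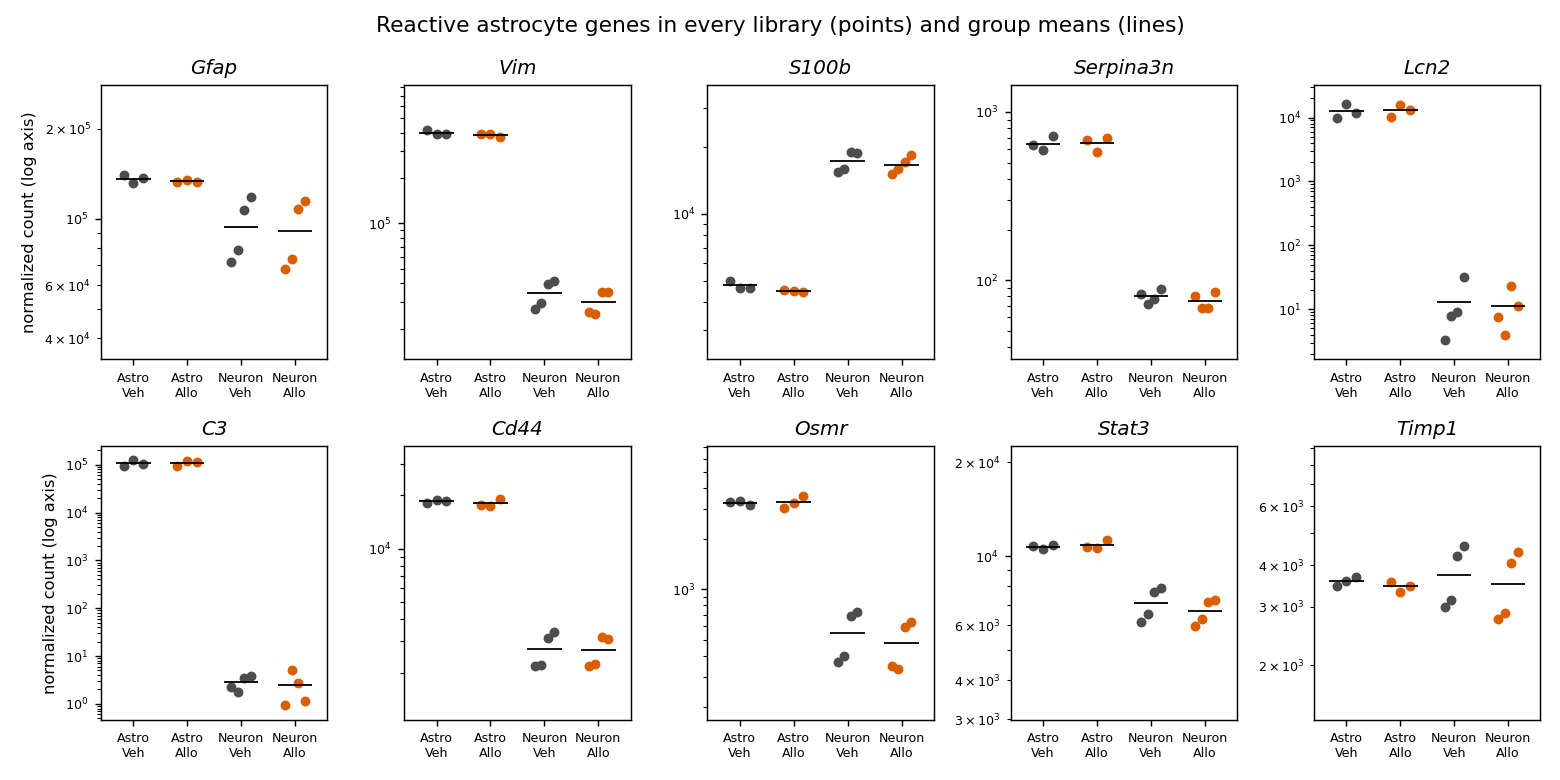
Normalized count (log axis) of each of the 10 genes in every library, with a panel per gene and AM-Veh in grey and AM-Allo in orange, astrocyte cultures on the left of each panel. Points are libraries and lines are group means. Lcn2 and C3 lie orders of magnitude lower in neuron cultures, S100b lies higher there, and the neuron points of most genes fall into a low and a high pair.

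Markers of other cell types stood beside these levels. The summed level of 11 astrocyte markers that are not among the 10 genes was 6010 to 6260 ppm in AM-Veh astrocyte cultures and 6860 to 7070 in AM-Veh neuron cultures. Single markers differed in both directions. Slc1a2, a glutamate transporter of mature astrocytes, was 15.0 times as high in AM-Veh neuron cultures, and Fgfr3 was 2.21 times as high in AM-Veh astrocyte cultures. For the 10 genes as for the markers, fewer cells of a type and less RNA per cell cannot be told apart in these bulk samples. The 12 microglial markers, a cell type that also makes C3, summed to 80.1 to 101 ppm in AM-Veh and 82.7 to 89.6 in AM-Allo astrocyte cultures. In neuron cultures 8 of them were listed, at 4.97 to 8.20 ppm. The 9 mesenchymal markers summed to 4510 to 5340 ppm in AM-Veh and 4960 to 5280 in AM-Allo astrocyte cultures, led by Tagln, against 298 to 435 in neuron cultures. Endothelial markers summed to at most 26.4 ppm in any library. Their part in the levels of the 10 genes was not tested. The 11 neuronal markers listed summed to 2920 to 3470 ppm in neuron cultures, led by Map2, with none at 0. They summed to 1130 to 1190 in astrocyte cultures, led by Stmn2, and the neuron cultures held oligodendrocyte-lineage markers at 1730 to 2070 ppm.

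The first comparison asked whether Allo changed these genes in astrocytes. Of the 10, 1 passed an unadjusted p under 0.05, S100b (limma on log2 values after adding 1, over 15380 genes). After Benjamini-Hochberg adjustment 0 of the 10 passed. Among all 15380 genes tested, 1078 passed that unadjusted threshold, with 3.29% lower and 3.72% higher, and 0.0065% passed the adjusted one. The count of 1 in 10 is near the share over all genes and is not read as a result about the set. The AM-Veh libraries had 5010, 4653 and 4660 normalized counts of S100b and the AM-Allo libraries 4529, 4497 and 4446. All 3 AM-Allo values lay below all 3 AM-Veh values, as in 6.07% of all genes tested. The log2 fold change was −0.088 with an interval (95%) of −0.17 to −0.0061, the unadjusted p was 0.0371 and the adjusted p was 0.691. Leaving out AM-Veh 1, AM-Allo 1, AM-Allo 2 or AM-Allo 3 raised the unadjusted p to 0.183, 0.0568, 0.0556 or 0.0814. It was 0.114 without limma's trend and 0.705 with values relative to the 11 other astrocyte markers, of which Slc1a2 and Kcnj10 were lower and 0 higher at an unadjusted p under 0.05. The scaling used the mean of their log2 values, with equal weight for each marker. Their log2 fold changes ran from −0.36 to 0.079, with a median of −0.023. The lowest were those of Slc1a2 and Gjb6, which averaged 160 and 15.9 normalized counts. The summed level of the 11, which is led by Slc1a3 and was not the scaling used, was 6010 to 6260 ppm in AM-Veh and 5960 to 6140 in AM-Allo. The part of these markers in the result was not tested.

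The filament genes kept close levels in all 6 astrocyte libraries. Gfap was at 139943, 131338 and 136520 in AM-Veh and 132453, 134864 and 132868 in AM-Allo. The groups overlapped and the log2 fold change was −0.027 (interval −0.12 to 0.063, unadjusted p of 0.530). Vim was at 413977, 389520 and 393508 in AM-Veh and 388434, 390364 and 374129 in AM-Allo. These also overlapped, with a log2 fold change of −0.054 (interval −0.16 to 0.055). The intervals leave room for a Gfap level between 0.922 and 1.04 times, and a Vim level between 0.894 and 1.04 times, that of vehicle.

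Of the secreted proteins, Lcn2, C3 and Serpina3n varied most between astrocyte libraries. Lcn2 was at 9949, 16169 and 11732 in AM-Veh and at 10146, 15732 and 13323 in AM-Allo. C3 was at 95963, 125340 and 102820 in AM-Veh and at 94157, 117314 and 116674 in AM-Allo. For both genes the library numbered 1 was the lowest and the library numbered 2 the highest in each group. Over all genes, same-numbered astrocyte libraries did not deviate together, at correlations of −0.00698 to 0.0241. The coefficient of variation of Lcn2 was 25.4% in AM-Veh and 21.4% in AM-Allo, that of C3 was 14.2% and 12.1%, and that of Gfap 3.19% and 0.966%. The log2 fold changes were 0.057 for Lcn2 (interval −0.28 to 0.39, unadjusted p of 0.718) and 0.020 for C3 (interval −0.18 to 0.22, unadjusted p of 0.836). Serpina3n, at 633, 590 and 724 in AM-Veh and 678, 580 and 704 in AM-Allo, was highest in the libraries numbered 3 and lowest in those numbered 2. Its log2 fold change was 0.011 (interval −0.18 to 0.20). Timp1 was at 3467, 3573 and 3689 in AM-Veh and 3569, 3329 and 3465 in AM-Allo, with overlapping groups and a log2 fold change of −0.050 (interval −0.14 to 0.036).

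The receptors and the transcription factor showed narrow intervals around no change. Cd44 was at 18160, 18672 and 18546 in AM-Veh and 17527, 17394 and 18967 in AM-Allo, Osmr at 3303, 3370 and 3170 and at 3044, 3280 and 3579, and Stat3 at 10764, 10567 and 10877 and at 10681, 10634 and 11302. In each of these 3 genes AM-Allo 3 was the highest of all 6 libraries. The log2 fold changes were −0.040 for Cd44 (interval −0.12 to 0.042), 0.0061 for Osmr (−0.11 to 0.12) and 0.018 for Stat3 (−0.058 to 0.093). Without AM-Allo 3, Cd44 had an unadjusted p of 0.0449 and Stat3 and Osmr turned to log2 fold changes of −0.011 and −0.054. Over the 10 genes, 5 were higher and 5 lower in AM-Allo. Of the latter, Gfap, Vim, Cd44 and Timp1 were at 0.014 to 0.041 relative to the other astrocyte markers. That scaling moved the median of all genes to 0.070, above each of these values. Without it, the median log2 fold change of the 10 genes was −0.010 against 0.0014 for all genes tested.

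**Figure D2:**
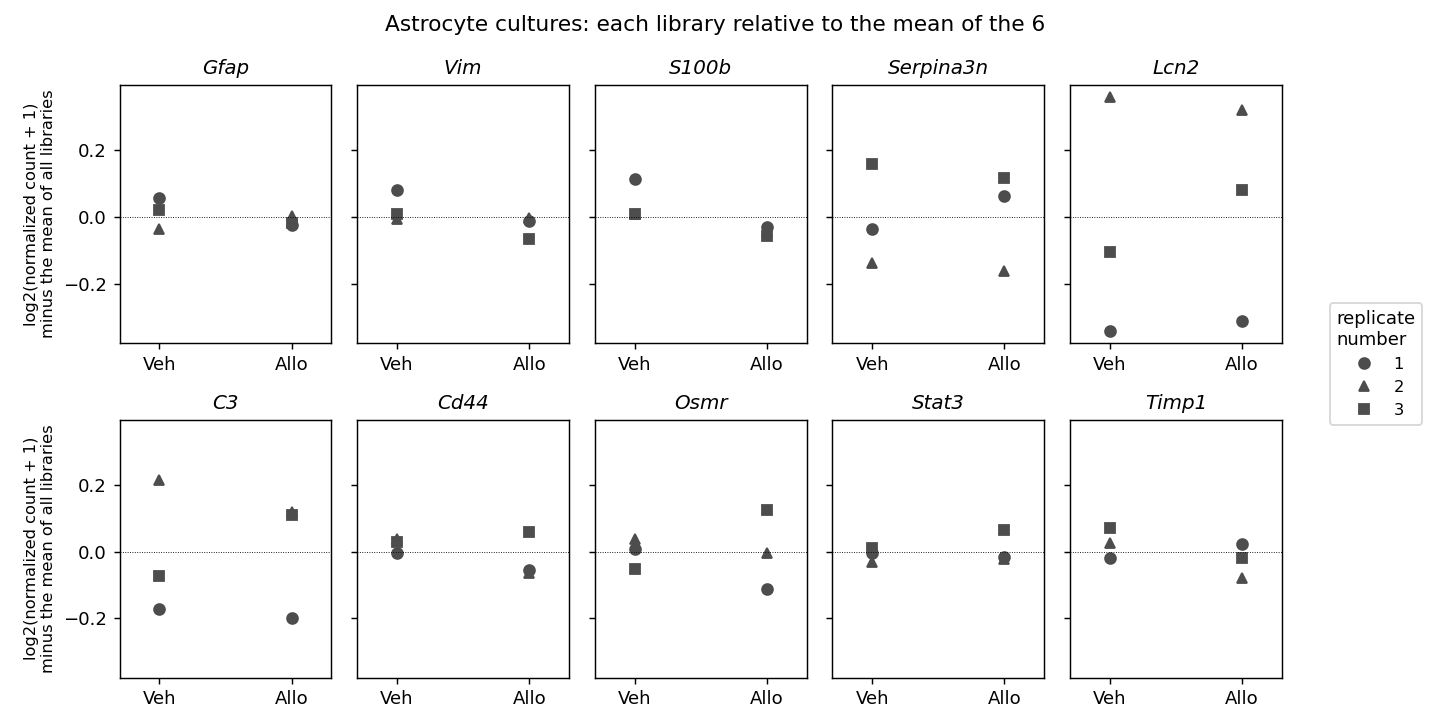
Each astrocyte library's log2(normalized count + 1) minus the mean of the 6 libraries, with a panel per gene, AM-Veh on the left and AM-Allo on the right, and a symbol per replicate number. Lcn2, C3 and Serpina3n spread most, with number 2 at the top for Lcn2 and C3 and at the bottom for Serpina3n, and S100b alone has no overlap between the groups.

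The neuron libraries fell apart by the first part of their replicate number. Libraries numbered 2-1 and 2-2 had higher levels of 8 of the 9 genes tested than those numbered 1-1 and 1-2, at an adjusted p under 0.05 with treatment in the same limma fit. Among all 15314 genes tested, 9.61% were higher by that measure. The same 8 genes had every 2-numbered library above every 1-numbered library, as did 10.2% of all genes. Their exact two-sided permutation p was 0.0286 each, the smallest that 4 libraries against 4 allow. This test and the limma fit both took the 8 libraries as independent. There are no further first numbers, and the labels do not say what they stand for. The p-values for the first number thus measure the spread between libraries within each, and they may be too small. The median log2 difference over the 9 genes was 0.54 against −0.0026 for all genes tested. C3, with a mean below 10 normalized counts, was not tested, and Lcn2 reached that mean only through the 2-numbered libraries.

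Among the receptors, Osmr was at 368, 401, 350 and 334 in libraries 1-1 and 1-2 of AM-Veh and then AM-Allo, and at 690, 727, 593 and 638 in libraries 2-1 and 2-2 in the same order. The log2 difference was 0.86 (standard error 0.054, adjusted p = 3.91e-08), a ratio of 1.82. Cd44 was at 2174, 2216, 2195 and 2241 in the 1-numbered and at 3136, 3411, 3185 and 3088 in the 2-numbered libraries. Its log2 difference was 0.54 (standard error 0.033, adjusted p = 3.25e-08). Stat3, the transcription factor downstream of the gp130 receptors, differed less, at 6137, 6514, 5983 and 6310 against 7700, 7931, 7142 and 7241. Its log2 difference was 0.27 (standard error 0.029, adjusted p = 1.13e-05).

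Both filament genes were higher in the 2-numbered libraries. Gfap was at 72068, 78721, 68164 and 73682 in the 1-numbered libraries, AM-Veh first, and at 107404, 118740, 107863 and 114981 in the 2-numbered ones. The log2 difference was 0.62 (standard error 0.038, adjusted p = 3.25e-08). Vim was at 27103, 29737, 25653 and 25162 against 39621, 41665, 34764 and 34797, with a log2 difference of 0.49 (standard error 0.029, adjusted p = 2.56e-08). S100b, at 15430, 15955, 15106 and 15856 against 18994, 18832, 17133 and 18389, differed by 0.23 on the log2 scale (standard error 0.028, adjusted p = 2.79e-05).

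Of the secreted proteins, Timp1 was at 2999, 3144, 2748 and 2881 against 4263, 4566, 4053 and 4375, a log2 difference of 0.55 (standard error 0.034, adjusted p = 3.35e-08). Lcn2 was at 3.32, 7.93, 7.46 and 4.0 against 9.08, 31.9, 22.8 and 11.3 normalized counts, a log2 difference of 1.47 (standard error 0.43, adjusted p = 0.0267). These are few reads, with means of 5.68 in the 1-numbered and 18.8 in the 2-numbered libraries. Lcn2 thus entered the test only through the group where it is high, and its call adds no support. With a minimum mean of 50, which leaves it out, 7 of the 8 genes tested passed. The call of Lcn2 also depended on single libraries. Without AM-Veh 1-1, AM-Veh 2-2, AM-Allo 1-2 or AM-Allo 2-1 its adjusted p was 0.0690, 0.107, 0.0736 or 0.0963, and it was 0.0963 without limma's trend. Serpina3n did not pass, at 83.1, 72.5, 80.2 and 68.3 against 77.4, 89.2, 67.9 and 85.3 (log2 difference 0.069, interval −0.22 to 0.35, adjusted p = 0.785).

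Within AM-Veh alone and within AM-Allo alone, 7 of the 9 genes passed the same threshold, Lcn2 and Serpina3n being the exceptions in each. The 9.61% of all genes given above belongs to the fit over all 8 libraries. The share in these smaller fits is not given here, so their count is not set against other genes. Other astrocyte markers did not move with them as a group. Of the 10 that were tested, 2 were higher (Aqp4 and Slc1a2), 3 were lower (Glul, Aldoc and Gja1) and the median log2 difference was −0.080. Their log2 differences ran from −0.39 for Glul, glutamine synthetase, to 0.17 for Aqp4, the water channel. The summed level of the 11 markers was 6910 to 7290 ppm in 1-numbered and 6370 to 6890 in 2-numbered libraries. Expressed relative to these markers, the count of the 10 genes that passed was again 8, and the share of all genes in that fit is not given either.

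**Figure D3:**
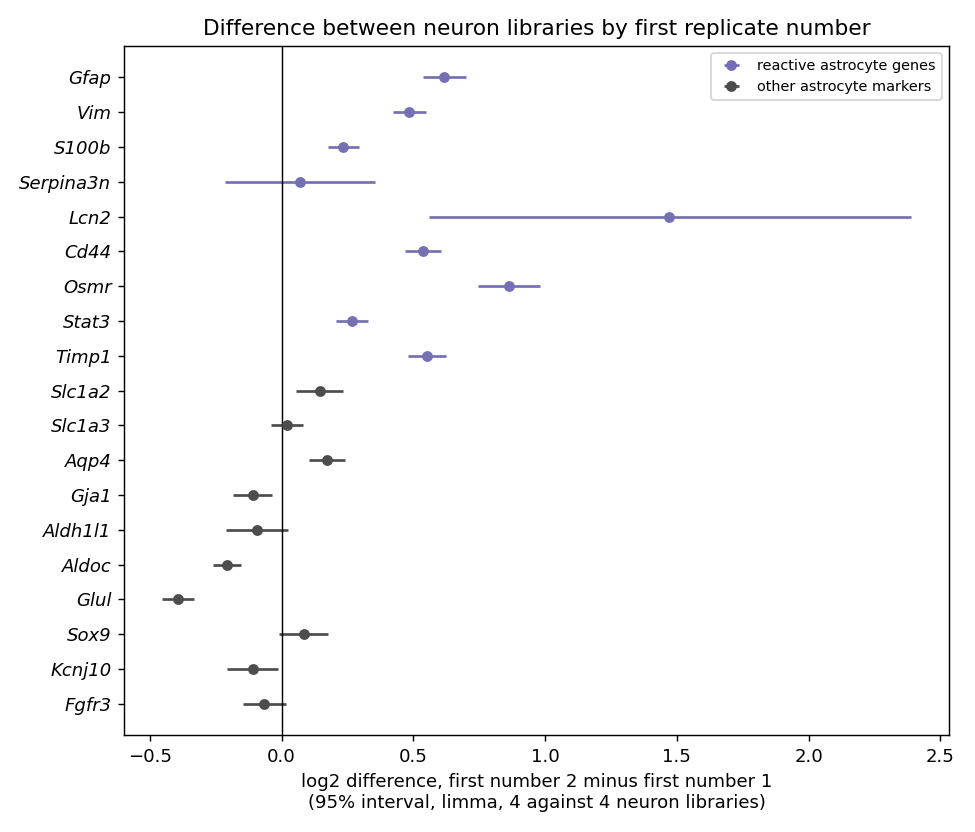
Log2 difference between neuron libraries with first number 2 and 1 (x axis), with 95% intervals from limma, for the 9 reactive astrocyte genes tested (purple) and the 10 other astrocyte markers tested (grey). The purple intervals lie above 0 except that of Serpina3n, and the grey points lie between −0.39 and 0.17.

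Markers of other cells also differed with the first number, in a comparison that called 2636 of all 15314 genes at an adjusted p under 0.05. Of these, 1471 were higher and 1165 lower in the 2-numbered libraries. Oligodendrocyte-lineage markers summed to 1940 to 2070 ppm in 1-numbered and 1730 to 1770 in 2-numbered libraries, with 6 of 9 lower and 1 higher at an adjusted p under 0.05. Of 9 mesenchymal markers 4 were lower, among them Col3a1 (log2 difference −3.46), and 2 were higher, Tagln (0.42) and Pdgfrb (0.29). Of the 3 microglial markers tested only Cd68 was higher (0.86), and the sum of those listed was 4.97 to 6.19 against 7.47 to 8.20 ppm. Of 11 neuronal markers 3 were higher, Gad1 (0.52), Gad2 (0.51) and Syt1 (0.22), and 0 lower. Of 2 endothelial markers tested Kdr was higher (1.12, adjusted p = 0.00154). The part of these cells in the difference of the 10 genes was not tested.

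Other genes of the reactive response were described by lists that leave out the 10 genes. All 4 pan-reactive genes tested were higher in the 2-numbered libraries, among them Hspb1, a small heat shock protein (log2 difference 1.01, adjusted p = 1.17e-08), S1pr3, a sphingosine-1-phosphate receptor (0.94, adjusted p = 4.53e-09), and Cp, ceruloplasmin (0.57, adjusted p = 5.79e-05). Of 9 A1-type genes, which follow inflammatory signals, 5 were higher and 0 lower, and of 10 A2-type genes, which follow ischaemia, 4 were higher and 0 lower. Of 22 genes of the gp130, JAK and STAT3 route, 7 were higher and 3 lower. Its smallest p-values were those of the transcription factor genes Junb (0.89), Cebpd (1.14) and Cebpb (0.63). Of 11 complement genes, 4 were higher and 1, Masp1, lower. Over all 101 listed genes tested, 34 were higher and 11 lower. Among all 15314 genes tested, 1471 (9.61%) were higher and 1165 lower at an adjusted p under 0.05 in the same limma fit. Hspb1, S1pr3, Cp, Junb, Cebpd and Cebpb were named for having the smallest p-values of their lists in this comparison.

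The second comparison of treatments asked whether Allo changed the genes in neuron cultures. Without regard to replicate numbers, 0 of the 9 genes tested had an unadjusted p under 0.05, against 5.69% of all genes, and 0 an adjusted one (0.0261% of all). The unadjusted p-values ran from 0.241 for Vim to 0.986 for Lcn2. All 9 fold changes were below 1, with a median log2 fold change of −0.081 against −0.0015 for all genes. Relative to the other astrocyte markers, Lcn2 and Cd44 had log2 fold changes of 0.015 and 0.0037. That scaling moved the median of all genes to 0.025. Each group held both first numbers, and the interval of Gfap ran from −0.49 to 0.38.

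Same-numbered AM-Veh and AM-Allo libraries correlated over all genes at 0.229 to 0.296, and those that share only the first number at 0.185 to 0.236. Pairing beyond the first number thus had little backing from these values, and the labels name no pairs. A fit with the replicate number as a block compared same-numbered libraries as pairs. With this replicate block, 6 of the 9 genes were lower in AM-Allo at an unadjusted p under 0.05 (Vim, Osmr, Stat3, Timp1, Gfap and S100b), against 5.04% of all genes, and 1, Vim, was lower at an adjusted p under 0.05, against 0.307%. With the first number alone as a block 4 were lower at the unadjusted threshold, Vim, Osmr, Stat3 and Timp1, against 5.24% of all genes. Gfap and S100b did not pass in that limma fit, at unadjusted p-values of 0.175 and 0.0629. Of the 9 genes tested, 6 were lower in all 4 pairs, as were 9.26% of all genes. These 6 were Vim, Osmr, Stat3, Timp1, S100b and Serpina3n.

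Vim had the smallest p of the 9 genes. AM-Allo differed from AM-Veh by −5.35% in pair 1-1, −15.4% in pair 1-2, −12.3% in pair 2-1 and −16.5% in pair 2-2. The log2 fold change was −0.19 (interval −0.25 to −0.13), with an unadjusted p of 1.26e-05 and an adjusted p of 0.0121 in the paired limma fit. Osmr differed by −4.98%, −16.8%, −14.0% and −12.2% in the same order of pairs (log2 fold change −0.19, interval −0.31 to −0.065, adjusted p = 0.222).

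Timp1 differed by −8.4%, −8.36%, −4.93% and −4.19% (log2 fold change −0.097, interval −0.16 to −0.037, adjusted p = 0.188). Stat3 differed by −2.51%, −3.12%, −7.25% and −8.7% (log2 fold change −0.081, interval −0.14 to −0.025, adjusted p = 0.258). For these 2 genes, as for Osmr, the call stands on the unadjusted p alone, which was 0.00384, 0.00802 and 0.00551 for Timp1, Stat3 and Osmr.

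S100b differed by −2.1%, −0.622%, −9.8% and −2.35%, and its unadjusted p of 0.0499 stood at the threshold (log2 fold change −0.056, adjusted p = 0.468). Gfap differed by −5.42%, −6.4% and −3.17% in pairs 1-1, 1-2 and 2-2 and was 0.427% higher in pair 2-1 (log2 fold change −0.054, unadjusted p of 0.0308, adjusted p = 0.406). Cd44 was 0.976%, 1.14% and 1.56% higher in pairs 1-1, 1-2 and 2-1 and differed by −9.47% in pair 2-2 (log2 fold change −0.023, interval −0.097 to 0.051). Serpina3n differed by −3.51% to −12.3% in the 4 pairs, with a wide interval of −0.37 to 0.18. Lcn2 and C3 went up in some pairs and down in others, at 3.32 to 31.9 and 0.930 to 5.0 normalized counts.

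**Figure D4:**
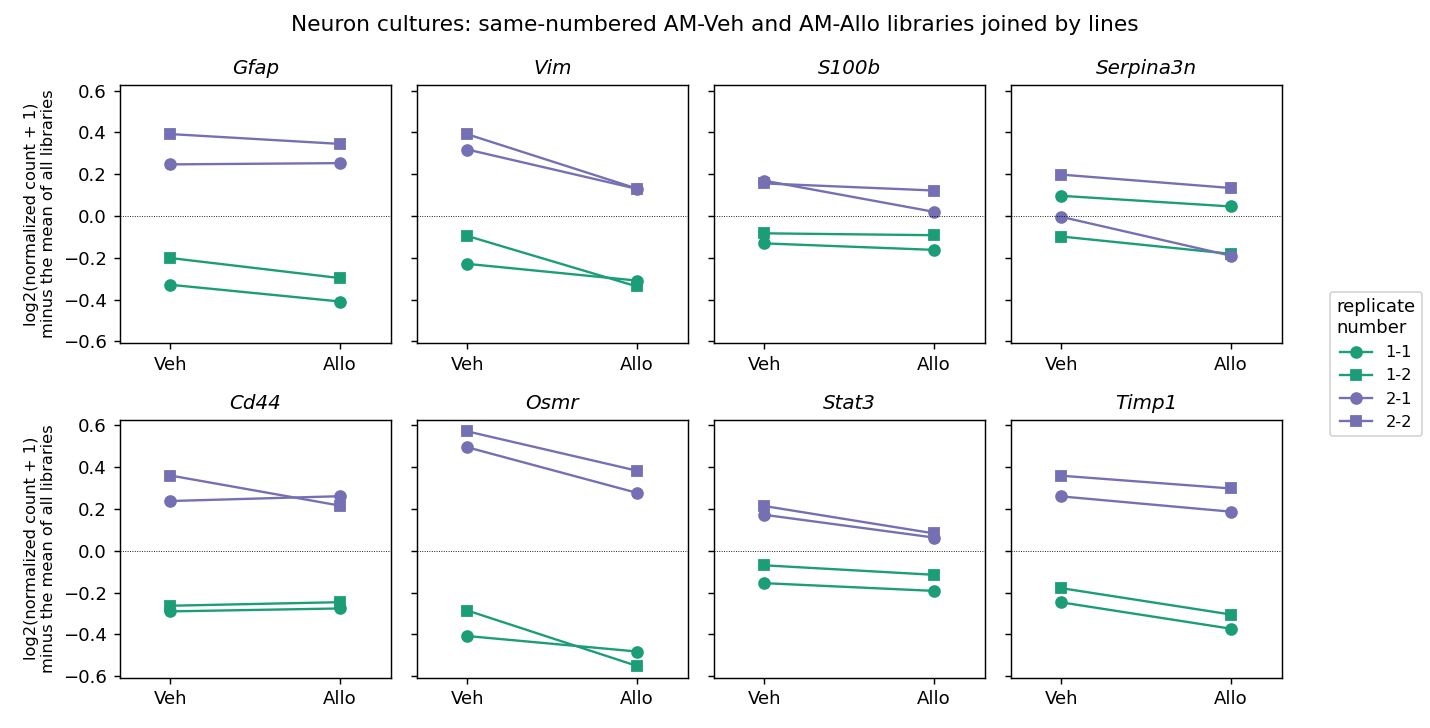
Log2(normalized count + 1) of each neuron library minus the mean of the 8 libraries, for the 8 genes with a mean above 50 normalized counts, with lines that join the AM-Veh and AM-Allo libraries of the same number. Purple (first number 2) lies above green (first number 1) except for Serpina3n. The 4 lines of Vim, Osmr, Stat3, Timp1, S100b and Serpina3n all slope down.

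The paired calls depended on single pairs for Gfap and S100b but not for the other 4. Leaving out pair 1-1, 1-2, 2-1 or 2-2 left 4, 5, 5 or 4 genes with an unadjusted p under 0.05, and Vim, Osmr, Stat3 and Timp1 were among them each time. Over all 15314 genes, 1721, 1480, 1147 or 1288 passed in either direction in the same fits. The adjusted p of Vim was 0.0760 without pair 2-1 and 0.000581 to 0.0376 without one of the others. Expressed relative to the other astrocyte markers with the replicate block, 2 genes passed, Vim (log2 fold change −0.17, unadjusted p of 0.00126, adjusted p = 0.150) and Osmr (−0.16, unadjusted p of 0.0330). In the paired fit 2 of those 10 markers were themselves lower, Gja1 and Fgfr3, and 1, Slc1a2, was higher, at an unadjusted p under 0.05. Their summed level, with the marker too low to test, was 6860 to 7070 ppm in AM-Veh and 6370 to 7290 in AM-Allo. In that fit 5 of 9 oligodendrocyte-lineage markers were higher. Of 11 neuronal markers 5 were higher and 2, Gad1 and Gad2, lower. Of 9 mesenchymal markers 3 were higher and 1, Tagln, lower (log2 fold change −0.31, adjusted p = 0.00867), and of 3 microglial markers 0 passed. Their part in the result was not tested. No gene of the set had an Allo effect that differed between first numbers at an unadjusted p under 0.05 (p of 0.155 to 0.861 in the limma interaction term).

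**Figure D5:**
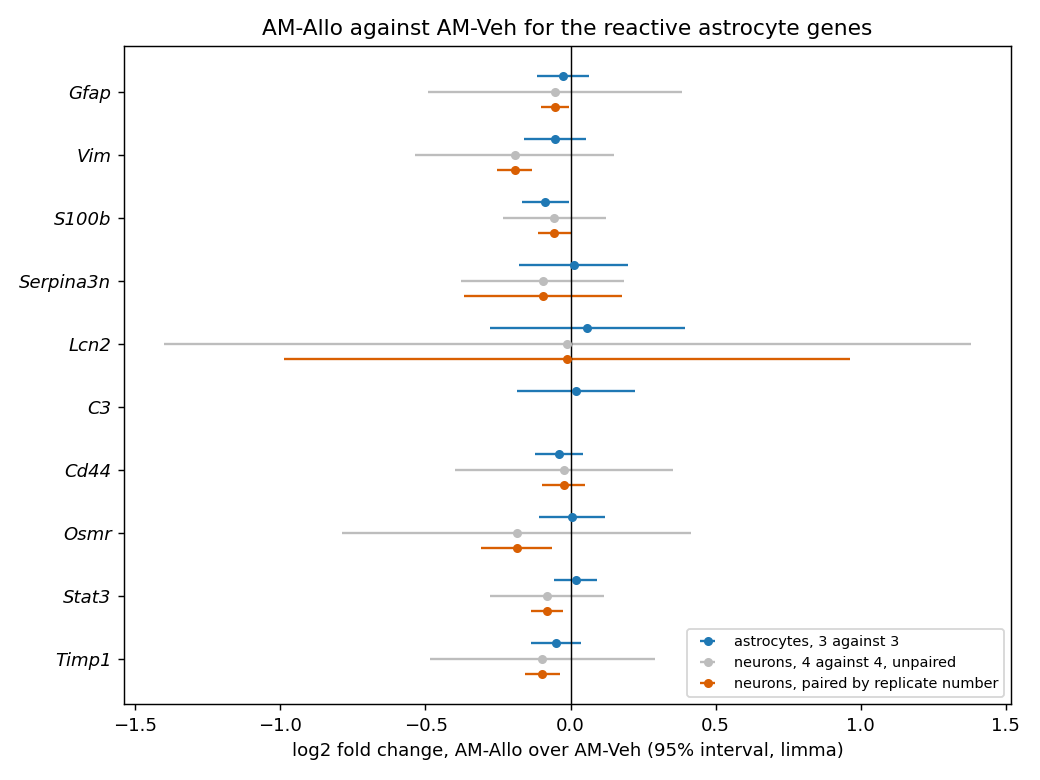
Log2 fold change of AM-Allo over AM-Veh (x axis) with 95% intervals from limma, for astrocytes (blue), neurons without pairing (grey) and neurons paired by replicate number (orange). Pairing narrows the neuron intervals, and the orange intervals of Vim, Osmr, Stat3, Timp1, Gfap and S100b lie below 0. C3 has no neuron value.

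In astrocytes, the lists of related genes held 116 further genes that were tested, of which 6 were higher and 6 lower in AM-Allo at an unadjusted p under 0.05, and 0 passed after adjustment over all genes by limma. Among all genes tested, 3.72% were higher and, as above, 3.29% lower at the unadjusted threshold. The median log2 fold change of the listed genes was 0.0060. On the gp130, JAK and STAT3 route 2 of 23 genes rose at the unadjusted threshold. Cebpb, which encodes a C/EBP transcription factor, averaged 1113 ± 93.3 (SD, n = 3) with vehicle and 1428 ± 196 (SD, n = 3) with Allo, with overlapping groups (log2 fold change 0.35, adjusted p = 0.335). With a replicate block 8 of the 116 genes were higher and 6 lower, 4 of the 23 on this route were higher, and Cebpb passed adjustment (adjusted p = 0.0382). Clcf1, a cytokine of the interleukin-6 family, averaged 518 ± 35.7 (SD, n = 3) and 577 ± 6.91 (SD, n = 3), with no overlap (log2 fold change 0.16, adjusted p = 0.686). Of the A1-type genes 2 of 9 rose, RT1-A2 (0.39) and Fkbp5 (0.21). RT1-A2 is a class I histocompatibility gene with close copies that can share its reads, so its value is uncertain. Of the 12 A2-type genes Clcf1 rose and Emp1 fell (−0.12).

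Among relatives of S100b and its receptor, 2 of 8 fell in astrocytes, S100a1 (log2 fold change −0.30, adjusted p = 0.473) and S100a11 (−0.17, adjusted p = 0.524). Among complement genes, the membrane inhibitor Cd59 (−0.15) and properdin, Cfp (−0.21), were lower of 21 tested. The nuclear lamina gene Lmna was higher (0.12) of 6 filament genes and linkers, the matrix protease Adamts1 lower (−0.18) of 13 metalloproteinases and inhibitors, and Spp1, osteopontin, a ligand of CD44, higher (0.29) of 14 genes of CD44 and hyaluronan. Of the 6 pan-reactive and the 8 acute-phase and iron-binding genes tested, 0 passed at the unadjusted threshold.

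In neurons, 101 further genes were tested, and with the replicate block 5 were higher and 15 lower at an unadjusted p under 0.05 and 3 lower after adjustment (without it 2 were higher, 6 lower and 0 passed adjustment). Among all genes 5.63% were higher and 5.04% lower with the block at the unadjusted threshold. The 3 were S1pr3, which averaged 2265 ± 866 (SD, n = 4) with vehicle and 1913 ± 673 (SD, n = 4) with Allo (log2 fold change −0.23, adjusted p = 0.0206), and the linkers of CD44 to the actin skeleton moesin, Msn (−0.18, adjusted p = 0.0121), and ezrin, Ezr (−0.15, adjusted p = 0.0326). Hyal1, a hyaluronidase, was also lower (−0.10), so that 3 of 13 genes of CD44 and hyaluronan were lower and 1 higher. Of 4 pan-reactive genes, Hspb1 (−0.19) was lower beside S1pr3. Of 10 A2-type genes 3 were lower, Emp1 (−0.30), Clcf1 (−0.36) and S100a10 (−0.11), and 0 higher. The filament gene Nes, nestin, had a log2 fold change of −0.14 and the neurofilament gene Nefl of −0.23, each with an adjusted p of 0.0636 in the paired fit. On the gp130, JAK and STAT3 route 2 of 22 fell in that fit, Cebpb (−0.13) and again Clcf1, both of which were higher in AM-Allo astrocytes. The difference between cultures was not tested. Fkbp5 likewise fell in neurons (−0.20), as did Amigo2 (−0.30), of 9 A1-type genes. Ager, a receptor for S100B, averaged 43.6 ± 5.41 (SD, n = 4) with vehicle and 25.9 ± 5.78 (SD, n = 4) with Allo, with no overlap (log2 fold change −0.75, adjusted p = 0.585 unpaired and 0.155 paired). Of 11 complement genes tested C4a was higher (0.72), with a close copy, C4b, that can share its reads, and Clu, clusterin, lower (−0.090). Of 11 metalloproteinases and inhibitors Timp2 (0.087) and, only in the fits with a block, Adamts5 (0.27) were higher. Of 8 acute-phase and iron-binding genes, Slc22a17, a receptor for lipocalin 2, was higher (0.055) in the paired fit.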

How the data were processed

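RNA-seq tables of 14 libraries were used, 8 of neurons and 6 of astrocytes, which were placed in groups by their titles. The authors quantified poly(A)-selected libraries against rat Ensembl transcripts with Salmon 0.14, summed them to genes, and deposited DESeq2-normalized counts (DESeq2 1.18.1, versions from their processing notes), each culture separately, used here as a signal that is not whole reads. They also deposited variance-stabilized values on a scale close to log2. Upstream sequences are those of RefSeq's GRCr8, another assembly than that of the deposited tables.

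The log2 of each normalized count plus 1 was used, and genes that averaged 10 or more in a table were tested with limma 3.58.1 (eBayes with a trend) in R 4.3.3, since these values are not counts, with Benjamini-Hochberg adjustment across every gene in the fit. The study's own threshold, an unadjusted p of 0.05, defined calls for Allo, and an adjusted p of 0.05 those for the first replicate number. The test was checked on simulated data. From the step between the lowest values, 1 read was worth 0.845 to 1.13 normalized counts, or about 19700000 to 25100000 reads on genes in neuron libraries and 22200000 to 28400000 in those of astrocytes. The lowest values were whole multiples within 0.1 reads for 60.2% to 92.5%, so reads were not recovered.

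In neurons, libraries with the same number correlated over genes at 0.296, 0.229, 0.265 and 0.273 after removal of the group means. Those that share only its first part correlated nearly as well, at 0.185, 0.236, 0.211 and 0.196. The replicate number, and its first part alone, were therefore also used as blocks, and the paired values stand beside the unpaired ones. The alternatives were other pseudocounts, filters and scalings, the variance-stabilized values, a fit with no trend, each library left out, blocks by number, and scaling to astrocyte markers.

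The 10 genes, the gene lists and the tests were chosen with earlier results of these data known. All 10 genes are named, and from each list up to 3 genes per culture with the smallest unadjusted p under 0.05 in an Allo comparison. Scaling to astrocyte markers, the pairs left out and the fits within 1 treatment were added after seeing the data.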

Additional observations from a re-analysis of the deposited data

How the results depend on the processing

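In astrocytes the count of 1 gene at an unadjusted p under 0.05 was 0 without limma's trend and 0 with values relative to the astrocyte markers, and it ran from 0 to 1 with each library left out. The replicate block gave 1 as well, though among the other listed genes it let Cebpb pass adjustment. Same-numbered astrocyte libraries correlated at 0.0241, −0.00698 and 0.0117 over all genes. Lcn2, C3 and Serpina3n nonetheless had the same order by number in both groups, and the labels do not say what the number stands for. In neurons the count of 0 became 6 with the replicate block, 4 with a replicate block by first number, 4 with the variance-stabilized values, and 2 with the block and marker scaling together. The calls over all 15314 genes, 872 without a block, were then 1634, 1684, 2204 and 1127. With the block and a pair left out it was 4 or 5, and it was 0 to 0 with single libraries left out of the unpaired fit. For the first number the count of 8 ran from 7 to 8 with each library left out. The variance-stabilized values could not give that comparison, because their means differed between first numbers by at most 7.5e-09 over 18239 genes. The neuron count from those values therefore already lacks that difference, which its p-values do not account for.

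Some fold changes that passed no test changed sign. With upper-quartile scaling in astrocytes, Serpina3n was at −0.0070 and Osmr at −0.012. Relative to the astrocyte markers, which moved the median of all genes to 0.070, Gfap was at 0.041, Vim at 0.014, Cd44 at 0.028 and Timp1 at 0.018 in astrocytes. In neurons Lcn2 was at 0.015 and Cd44 at 0.0037, with or without the block, and the median of all genes was 0.025. With each astrocyte library left out, the ranges were −0.055 to 0.095 for Serpina3n, −0.099 to 0.25 for Lcn2, −0.061 to 0.13 for C3, −0.054 to 0.063 for Osmr and −0.011 to 0.034 for Stat3. With each neuron library left out of the unpaired fit they were −0.18 to 0.073 for Gfap, −0.12 to 0.093 for Cd44, −0.44 to 0.53 for Lcn2 and −0.21 to 0.012 for Timp1. With the block, leaving out pair 1-2 or 2-2 gave 0.26 or 0.46 for Lcn2, and leaving out pair 2-2 gave 0.018 for Cd44. The cause was not tested. No other call of these genes between AM-Allo and AM-Veh changed with the replicate block. In neuron cultures C3 was read too rarely to test, and Lcn2 had intervals too wide for a change with Allo to be seen.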

Other observations

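Of 8 acute-phase and iron-binding genes tested, other than lipocalin 2 and the rest of the 10 genes, 4 were higher and 1 lower in the 2-numbered neuron libraries at an adjusted p under 0.05 (limma). By that measure 1471 of all 15314 genes were higher and 1165 lower. The counts of 1 or 2 genes given here are not read as results about their lists. Fth1, the heavy chain of ferritin, was at 45500 ± 1080 (SD, n = 4) normalized counts in the 1-numbered and 79880 ± 6520 (SD, n = 4) in the 2-numbered libraries, with no overlap. Ftl1, the light chain, was at 14030 ± 423 (SD, n = 4) and 19050 ± 973 (SD, n = 4). Of the genes of CD44 and hyaluronan, 5 of 13 were higher and 2 lower, and Spp1, osteopontin, was at 50.9 ± 8.88 (SD, n = 4) and 176 ± 31.9 (SD, n = 4). Of 11 metalloproteinases and inhibitors 1 was higher and 2 were lower, Timp4 and Mmp2, at 571 ± 38.0 (SD, n = 4) against 387 ± 16.8 (SD, n = 4) and at 1212 ± 106 (SD, n = 4) against 868 ± 51.9 (SD, n = 4). Ferritin genes have processed copies that can share their reads. These 5 genes were chosen after their values were seen, as those with the smallest p-values of their lists.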
